A study of Mus musculus with 8 samples.

Results

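Cadherins and protocadherins are calcium-dependent adhesion proteins of the cell surface. Their genes were described here across the cell classes of the embryonic mouse cortex and between 2 libraries, 1 from wild type embryos and 1 from embryos electroporated with a ShhN plasmid. Of 27998 genes in the count matrices, 92 rows carried a symbol of the form Cdh plus a number, or starting with Pcdh, and 59 of them had 50 or more UMIs (unique molecular identifiers, that is, counted RNA molecules) over the filtered cells of both libraries, counted before called doublets were removed. In the same cells 13125 genes in all reached 50 UMIs. Just inside that limit lay Pcdhb10 and Pcdhga4, with 50 UMIs each. Just outside lay Cdh22 with 48 UMIs and Pcdha9 and Pcdhac2 with 45 each, while Cdh1, Cdh16, Cdh19, Cdh26, Pcdha1 and Pcdhb1 had 0.

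The study asked how the signalling protein SHH acts on the lineage of cortical neural stem cells. Single cells were taken from the cortex of CD1 mice at embryonic day 16.5, from 4 wild type littermates and from 4 ShhN in utero electroporation embryos, in which plasmid was introduced at E13.5. The cells were freed with papain and run on the 10x Chromium droplet platform. The matrices hold 1 library per group, with no map from cells to the 4 samples, so no spread between embryos could be measured: no test was made, and every interval covers counting error only. In utero electroporation reaches only part of the cells, the labels do not say which promoter drives the plasmid, and a control plasmid for the wild type littermates is not mentioned.

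Classical cadherins bind the same or a closely related cadherin on the neighbouring cell and are tied to actin through catenins. Type I members include N-cadherin (Cdh2), which holds the adherens junctions of radial glia at the ventricle, and type II members are expressed in combinations that differ between brain regions and cortical layers. The delta protocadherins are single genes with a long cytoplasmic tail. The alpha, beta and gamma protocadherins lie in tandem in 3 gene clusters, and neurons express small, differing sets of them that serve self-recognition of neurites. In the alpha and gamma clusters each variable first exon is spliced to exons shared by the whole cluster.

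By these families the 59 genes comprised 2 of 5 type I cadherins (Cdh2, Cdh4), 8 of 13 type II cadherins (Cdh5, Cdh7, Cdh8, Cdh10, Cdh11, Cdh12, Cdh20, Cdh24), Cdh13 as 1 of 5 other cadherins, 4 of 4 delta-1 protocadherins (Pcdh1, Pcdh7, Pcdh9, Pcdh11x) and 5 of 5 delta-2 protocadherins (Pcdh8, Pcdh10, Pcdh17, Pcdh18, Pcdh19). The other single protocadherins were Pcdh12 and Pcdh20. Of the clustered genes, 3 of 14 alpha, 20 of 22 beta and 14 of 22 gamma genes were kept. In the GENCODE M21 annotation all 14 alpha genes ended within 1000 bases of one common 3′ end, as did all 21 annotated gamma genes, whereas the 22 beta genes had 22 distinct ends. A library that reads the 3′ end of transcripts therefore cannot separate single alpha or gamma genes, and their values are uncertain. Gene coordinates below are those of that annotation, on GRCm38. The row named Pcdhga8 carried the identifier that GENCODE M21 names Pcdhgc4. Together the 59 genes stood at 959 CPM (counts scaled to a common total) in wild type cells and at 787 CPM in ShhN cells.

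Promoters are shown for 4 genes whose levels stood out in different classes below: Pcdh10 in radial glia-like cells, Cdh10 in intermediate progenitor-like and migrating neuron-like cells, Cdh12 in upper layer neuron-like cells and Pcdh19 in GABAergic interneuron-like cells. Each window holds 250 bases before and 50 bases after a RefSeq gene start in GRCm38.p6, read 5′ to 3′ on the gene's strand, and such a window was at hand for 14 of the 59 genes. Capitals mark matches to GGGCGG or CCAAT on either strand, so that CCGCCC and ATTGG are matches of the reverse strand.
Pcdh10, chr3:45378148-45378447, plus strand: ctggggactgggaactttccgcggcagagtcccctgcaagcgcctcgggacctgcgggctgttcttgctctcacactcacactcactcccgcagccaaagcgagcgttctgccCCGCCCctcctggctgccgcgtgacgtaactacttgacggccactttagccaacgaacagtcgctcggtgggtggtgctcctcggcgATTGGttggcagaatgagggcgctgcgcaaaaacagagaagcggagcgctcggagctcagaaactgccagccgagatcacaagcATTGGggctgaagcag
Cdh10, chr15:18820079-18820378, plus strand: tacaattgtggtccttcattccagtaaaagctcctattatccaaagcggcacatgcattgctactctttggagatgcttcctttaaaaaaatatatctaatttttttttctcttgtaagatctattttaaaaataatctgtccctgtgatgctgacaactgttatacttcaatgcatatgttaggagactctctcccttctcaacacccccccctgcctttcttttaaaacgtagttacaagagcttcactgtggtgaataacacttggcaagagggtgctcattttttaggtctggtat
Cdh12, chr15:21111202-21111501, plus strand: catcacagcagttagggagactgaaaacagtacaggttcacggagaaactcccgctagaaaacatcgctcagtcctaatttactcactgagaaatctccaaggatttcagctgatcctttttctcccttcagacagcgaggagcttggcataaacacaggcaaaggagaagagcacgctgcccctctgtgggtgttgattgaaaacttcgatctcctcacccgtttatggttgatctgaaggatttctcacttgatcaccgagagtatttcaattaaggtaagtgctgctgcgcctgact
Pcdh19, chrX:133688944-133689243, minus strand: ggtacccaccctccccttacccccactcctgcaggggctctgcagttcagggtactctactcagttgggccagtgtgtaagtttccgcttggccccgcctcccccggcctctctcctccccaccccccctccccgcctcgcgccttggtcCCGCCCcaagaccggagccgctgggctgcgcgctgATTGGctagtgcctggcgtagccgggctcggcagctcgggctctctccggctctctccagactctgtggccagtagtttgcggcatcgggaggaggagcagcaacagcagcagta

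The Pcdh10 and Pcdh19 windows were rich in G and C, at 62.3% and 67.7%, against a median of 52.7% over 32851 promoters, while those of Cdh10 (37.7%) and Cdh12 (46.7%) lay below that median. The Pcdh10 window held 1 GGGCGG match and 2 CCAAT matches and that of Pcdh19 held 1 of each. The Cdh10 and Cdh12 windows held none of the 5 motifs searched, which were GGGCGG (in 35.7% of all promoters and 6 of the 14 windows), CCAAT (37.4% and 10), TATAAA (13.6% and 1, Pcdh8), CAGATG (17.2% and 1, Cdh24) and GACCACCCA (0.253% and 0). The RefSeq starts of Pcdh10 and Pcdh19 lay 0 and 6 bases from the GENCODE gene starts. That of Cdh10 lay 1382 bases and that of Cdh12 662187 bases inside the GENCODE gene, at the start of 1 annotated transcript in each case. A match is a description of letters and does not show binding.

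The libraries held 63760199 (wild type) and 69470062 UMIs (ShhN). After filters and removal of called doublets (3.87% and 2.96%), 6953 wild type and 8068 ShhN cells were kept, with medians of 6275 and 6683.5 UMIs per cell, and 79 cell barcodes occurred in both. The excitatory neuron gene Neurod6 had at least 1 UMI in 87.7% of the wild type cells, and the ShhN share was 88.2%. Shh had 0 UMIs in wild type cells and 5904 in ShhN cells, where 7.24% of cells held one, and the SHH target Ptch1 was found in 3.49% and 12.8% of cells. Cells were grouped into clusters without using the cadherin family genes or the SHH pathway genes, and clusters were named by markers.

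The classes compared between the libraries, with wild type and ShhN cell numbers, were radial glia-like (171 and 238), intermediate progenitor-like (431 and 564), migrating neuron-like (1366 and 2275), upper layer neuron-like (1375 and 1422), layer 5 neuron-like (1079 and 978), layer 6 neuron-like (527 and 397) and GABAergic interneuron-like (788 and 531). Cajal-Retzius-like cells (128 and 45) and endothelial-like cells (48 and 34) were too few to compare. The endothelial-like cluster was also high in 8 of 8 mural and 4 of 7 fibroblast markers. The libraries filled the clusters of a class unevenly. Among GABAergic interneuron-like cells the wild type library had 606 cells in cluster 8 (led by Lhx6 and Sst) and 18 in cluster 16 (led by Sp8, Sp9 and Dlx genes), where the ShhN library had 239 and 255. Likewise cluster 11 held 359 and 215 intermediate progenitor-like cells, the mitotic cluster 12 held 72 and 349, and migrating neuron-like cluster 5 held 155 and 847. Cluster 6 held 602 and 331 layer 5 neuron-like cells and cluster 4 held 477 and 647, and layer 6 neuron-like clusters 10 and 15 held 273 and 312 and 254 and 85 cells. Cluster 6 was high in 5 of 10 layer 5 and 5 of 10 migrating neuron markers, and took its name from the one of these markers (Crym) among its 10 leading genes. Levels below are CPM of summed UMIs within a class, with exact Poisson 95% intervals, and are compared only within a gene, since 3′ counts of different genes were not set on one scale. Where a pair of values is given, the wild type library comes first and the ShhN library second.

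Layer 6 neuron-like cells were the class in which a family gene was most often highest. Among the 43 genes with 50 or more UMIs in each library, 20 had their highest class level there in the wild type library and 18 in the ShhN library (46.5% and 41.9%), beside 20.7% and 20.9% of 11811 genes of all kinds. GABAergic interneuron-like cells were highest for 9 and 10 family genes (20.9% and 23.3%, beside 12.8% and 10.7%) and radial glia-like cells for 2 and 2 (4.65% in each, beside 30.5% and 31.0%). The lowest level, ties included, was in radial glia-like cells for 22 and 24 genes (51.2% and 55.8%), beside 24.2% and 23.5% of all genes. These highest and lowest ranks carry no interval. Radial glia-like cells had the fewest UMIs of the compared classes (1389376 and 1696725). Some of their lowest levels were 0, as for Pcdhb5 and Pcdhb21 in the wild type library. The highest class was the same in both libraries for 22 of 43 genes (51.2%), beside 56.5% over all genes. Among the 12 compared clusters the order differed. GABAergic interneuron-like cluster 8 was most often highest, for 10 and 15 genes (23.3% and 34.9%, beside 10.3% and 15.2% of all genes). Layer 6 neuron-like cluster 10 followed with 8 and 9 (18.6% and 20.9%, beside 11.8% and 11.4%). Cluster 15, the other layer 6 neuron-like cluster, had too few ShhN cells to be compared.

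**Figure D1:**
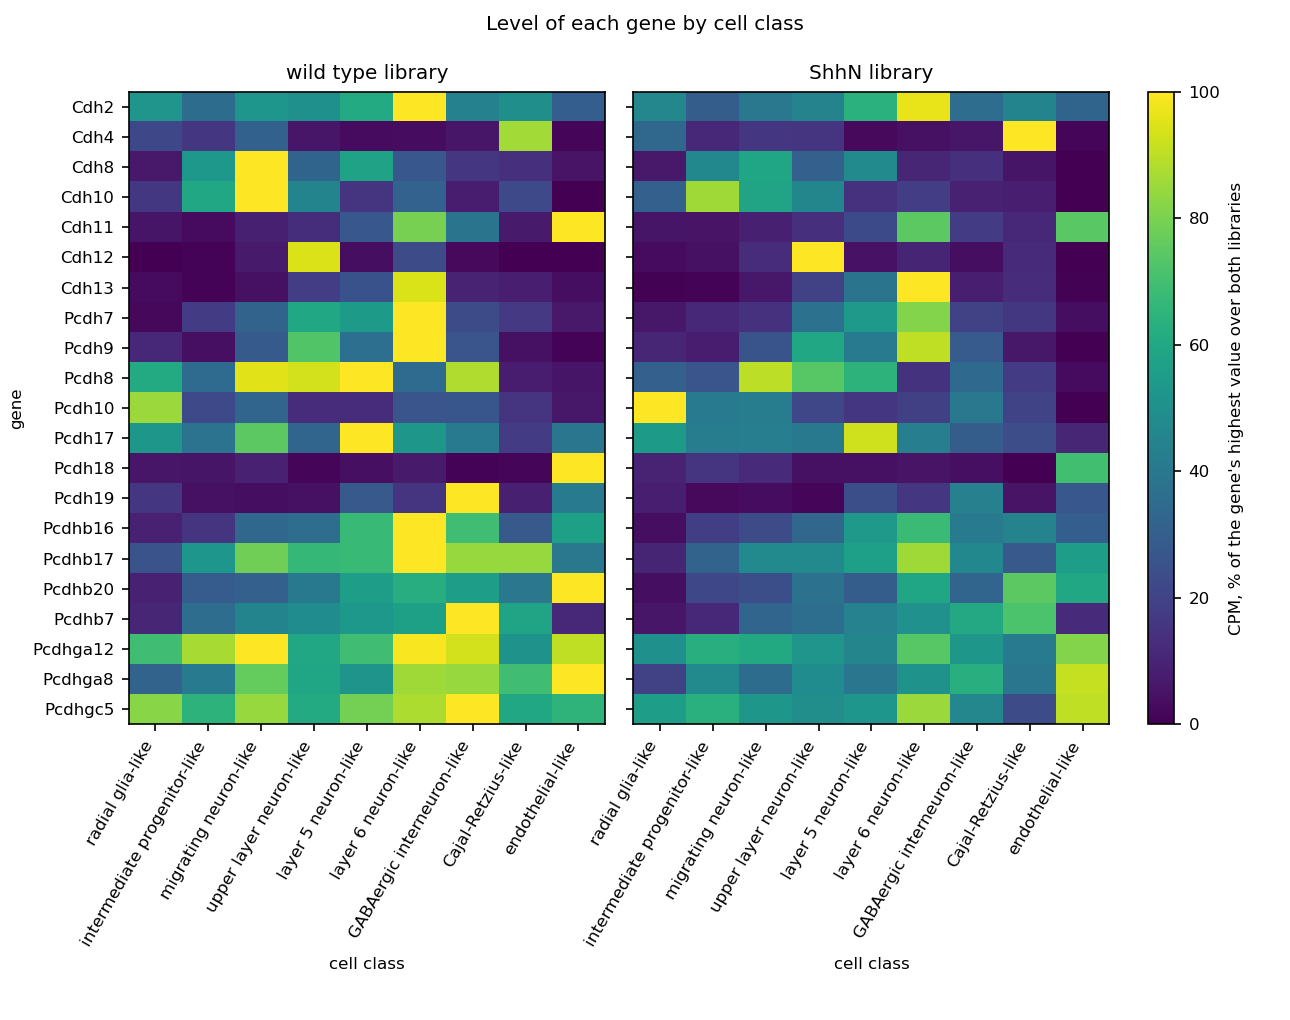
Levels of the 21 genes with 500 or more UMIs in 9 cell classes (columns) of each library, coloured by CPM as a percentage of that gene's highest value over both libraries. Cdh12 is bright in upper layer neuron-like cells only, Cdh13 in layer 6 neuron-like cells, Pcdh10 in radial glia-like cells and Cdh4 in Cajal-Retzius-like cells, in both panels.

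A gene was called enriched in a class where it had 50 or more UMIs in the library, a log2 ratio of at least 1 over all other cells, and a lower bound of at least 0.5. Layer 6 neuron-like cells had 7 of 45 testable genes enriched in the wild type library (6.06% of all genes) and 8 of 46 in the ShhN library (7.58%). In radial glia-like cells 1 and 2 were enriched (13.1% and 13.7% of all genes), in intermediate progenitor-like cells 0 and 2 (8.05% and 6.06%), in migrating neuron-like cells 4 and 0 (2.25% and 1.32%), in upper layer neuron-like cells 1 and 2 (1.04% and 1.99%), in layer 5 neuron-like cells 2 and 6 (2.14% and 3.66%) and in GABAergic interneuron-like cells 4 and 4 (4.1% and 5.53%). In both libraries the share among family genes was thus above that of all genes in layer 6, layer 5 and upper layer neuron-like cells. The same held for GABAergic interneuron-like cells. It was below that of all genes in radial glia-like and intermediate progenitor-like cells, and in migrating neuron-like cells the libraries differed. None of this was tested, and several classes rest on 1 or 2 genes. In both libraries 12 genes were enriched in the same class. The 4 genes of migrating neuron-like cells, Cdh4, Cdh8, Cdh10 and Pcdh18, passed in the wild type library and not in the ShhN library, a difference that was not tested.

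Cdh2, the type I cadherin of adherens junctions, was the family gene with the most UMIs and had UMIs in each class compared between the libraries. Its level was highest in layer 6 neuron-like cells, at 542 CPM (515–570) and 525 CPM (497–554). It was lowest of the compared classes in intermediate progenitor-like cells, at 191 CPM (175–207) and 159 CPM (147–171). Between these lay radial glia-like cells at 283 and 250 CPM, migrating neuron-like cells at 285 and 216 CPM, upper layer neuron-like cells at 271 and 242 CPM, layer 5 neuron-like cells at 331 and 347 CPM and GABAergic interneuron-like cells at 239 and 193 CPM. After thinning each cell to 4500 UMIs, Cdh2 was found in 87.8% and 86.6% of layer 6 neuron-like cells and in 57.7% and 52.2% of intermediate progenitor-like cells (92.0%, 94.0%, 66.6% and 64.0% without thinning).

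Cdh4, or R-cadherin (chr2:179442431-179899373, plus strand), the other type I gene, had a narrower pattern. It was highest in Cajal-Retzius-like cells, the early Reln-producing neurons of the cortical surface, at 242 CPM (214–273) and 281 CPM (233–337). In thinned cells that was 49.6% and 64.3% of Cajal-Retzius-like cells with a UMI, against 3.27% and 3.29% of layer 5 neuron-like cells (60.2%, 73.3%, 5.75% and 3.99% without thinning). Radial glia-like cells had 60.5 CPM (48.2–74.9) and 94.9 CPM (80.8–111). Layer 5 neuron-like, layer 6 neuron-like and GABAergic interneuron-like cells all lay between 7.06 and 17 CPM. Its order of classes differed between the libraries: in wild type cells migrating neuron-like cells (87.8 CPM) were above radial glia-like and upper layer neuron-like cells (17.1 CPM), and in ShhN cells migrating neuron-like (45.0 CPM) and upper layer neuron-like cells (42.0 CPM) had intervals that overlapped (41.5–48.7 and 38.3–46.0).

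Among type II cadherins, Cdh12 (chr15:20449265-21589533, plus strand) was found mainly in upper layer neuron-like cells, the late-born neurons of the cortical plate. It stood at 36.5 CPM (32.9–40.4) in wild type and 38.6 CPM (35.1–42.5) in ShhN upper layer neuron-like cells, 12.9 and 10.7 times the level of all other cells. The next class in the wild type library was layer 6 neuron-like with 8.87 CPM, and in the ShhN library migrating neuron-like with 4.97 CPM. Cdh12 was found in 15.1% and 15.2% of thinned upper layer neuron-like cells. In thinned radial glia-like cells it was found in 0 of 147 wild type cells, which allows a share of up to 2.04%, and in 1.04% of ShhN cells (unthinned, 21.6% and 22.6% of upper layer neuron-like cells, 0 of 171 wild type radial glia-like cells, a limit of 1.75%, and 0.84% of ShhN ones). The median depth of radial glia-like cells, 6960 and 6155 UMIs, was close to that of upper layer neuron-like cells, 7138 and 7612.

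Cdh8 (chr8:99024471-99416471, minus strand) and Cdh10 (chr15:18818947-19014236, plus strand), also type II, were both high in migrating neuron-like cells, the young neurons on their way to the cortical plate. Cdh8 was highest in migrating neuron-like cells, at 85.6 CPM (78.9–92.6) and 50.7 CPM (47.0–54.6), ahead of layer 5 neuron-like cells (49.2 and 40.9 CPM) and intermediate progenitor-like cells (45.6 and 40.0 CPM). Radial glia-like cells were the lowest of the compared classes for Cdh8, at 5.76 and 5.89 CPM. Cdh10 was highest in migrating neuron-like cells in the wild type library (57.4 CPM) and in intermediate progenitor-like cells in the ShhN library (49.2 CPM). GABAergic interneuron-like cells were the lowest of the compared classes for Cdh10, at 4.59 and 5.18 CPM. Cdh10 in the mitotic progenitor cluster 12 was alike in the libraries, at 54.2 CPM (36.8–77.0) and 56.6 CPM (48.0–66.3).

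Cdh11 (chr8:102632095-102785642, minus strand) was enriched in layer 6 neuron-like cells, at 50.7 and 47.8 CPM, 4.81 and 6.34 times the other cells, and was also found in the endothelial-like cluster (63.8 and 47.6 CPM), which also held fibroblast markers. Intermediate progenitor-like cells had 1.78 and 3.46 CPM. Cdh13, or T-cadherin (chr8:118283733-119324921, plus strand), which is held to the membrane by a lipid anchor and lacks the cytoplasmic tail, followed the same layer. It stood at 305 CPM (285–327) and 323 CPM (301–346) in layer 6 neuron-like cells, 6.63 and 6.93 times all other cells. Next came layer 5 neuron-like cells with 81.9 CPM (76.3–87.8) and 124 CPM (117–132), then upper layer neuron-like cells with 59.2 and 63.4 CPM. Radial glia-like cells (9.36 and 2.36 CPM) and intermediate progenitor-like cells (3.56 and 3.46 CPM) were at the bottom for Cdh13. In thinned cells Cdh13 was found in 63.4% and 71.2% of layer 6 neuron-like and 1.33% and 1.38% of intermediate progenitor-like cells (69.8%, 83.1%, 2.09% and 2.3% unthinned).

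Within the layer 5 neuron-like class, Cdh13 differed between the clusters: cluster 4 had 158 CPM in wild type and 166 CPM in ShhN cells, and cluster 6, led by Slit3, Nrp2 and Crym, had 22.7 and 41.6 CPM. Cluster 4 made up more of this class in the ShhN library, beside the higher class level of Cdh13 there (log2 ratio 0.60, interval 0.47 to 0.74). The part of this filling in the class ratio was not tested. Within cluster 4 the Cdh13 ratio was 0.07, with an interval that included 0. Within cluster 6 it was 0.87, with an interval above 0. Its interval was also above 0 in clusters 0 (0.67), 2 (0.43), 3 (0.90) and 8 (0.90). In clusters 1 (0.08) and 10 (0.12) the interval included 0. Over all cells the Cdh13 ratio was -0.08, with an interval below 0.

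The delta-1 protocadherins Pcdh9 (chr14:93013410-93890679, minus strand) and Pcdh7 (chr5:57717967-58133230, plus strand) were low in progenitors and high in neurons of the deep and upper layers. Pcdh9 had 222 CPM (205–241) and 201 CPM (184–219) in layer 6 neuron-like cells, 162 and 132 CPM in upper layer neuron-like cells, and 9.26 and 17.3 CPM in intermediate progenitor-like cells. In thinned cells 55.9% and 55.5% of layer 6 neuron-like and 2.66% and 6.13% of intermediate progenitor-like cells held a Pcdh9 UMI (60.2%, 67.0%, 5.1% and 9.22% unthinned). Pcdh7 had 134 and 109 CPM in layer 6 neuron-like cells, 79.9 and 49.8 CPM in upper layer neuron-like, 72.9 and 72.6 CPM in layer 5 neuron-like and 2.88 and 8.84 CPM in radial glia-like cells. Both genes were enriched in layer 6 neuron-like cells in each library, Pcdh9 by 2.19 and 2.58 times and Pcdh7 by 2.66 and 3.47 times. The remaining delta-1 genes were scarce in the compared classes: Pcdh1 was highest in the endothelial-like cluster (75.1 and 92.7 CPM) and Pcdh11x in Cajal-Retzius-like cells (35.9 and 23.8 CPM).

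The 5 delta-2 protocadherins had different class patterns. Pcdh10 (chr3:45378398-45435623, plus strand) was enriched in radial glia-like cells, the neural stem cells of the cortex, at 88.5 CPM (73.6–106) and 104 CPM (89.5–121), 4.59 and 3.41 times the other cells. In thinned cells 26.5% and 34.7% of radial glia-like and 5.58% and 6.16% of layer 5 neuron-like cells held a Pcdh10 UMI (46.2%, 50.8%, 9.64% and 11% unthinned). Pcdh17 (chr14:84443563-84539002, plus strand) was enriched in layer 5 neuron-like cells, at 110 and 102 CPM, 2.09 and 2.29 times the other cells. It was next highest in migrating neuron-like cells in the wild type library (82.1 CPM) and in radial glia-like cells in the ShhN library (60.1 CPM).

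Pcdh19 (chrX:133582860-133688987, minus strand), an X-linked gene whose loss is known to cause epilepsy, was enriched in GABAergic interneuron-like cells, 8.04 and 6.27 times the other cells. It was next highest in layer 5 neuron-like cells (36.8 and 31.8 CPM) and at most 5.83 CPM in intermediate progenitor-like, migrating neuron-like and upper layer neuron-like cells. Pcdh8 (chr14:79766775-79771312, minus strand) was spread over neuron classes, from 28.7 to 82.5 CPM in the wild type library. Its level was high in cluster 2, unnamed and led by Kcna1, Rspo3 and Vrk2, with 141 CPM (130–152) and 106 CPM (97.8–115), and in layer 5 neuron-like cluster 6, with 124 CPM (115–134) and 107 CPM (95–120). In cluster 2 Pcdh8 was enriched 2.09 and 2.18 times, as were 0.234% and 0.452% of all genes. Pcdh18 (chr3:49743296-49757325, minus strand) was highest in the endothelial-like cluster (95.6 and 66.6 CPM) and at most 14.6 CPM in the neural classes.

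Vascular genes served as a check of specificity. Cdh5, or VE-cadherin, which joins endothelial cells, had 239 and 240 CPM in the endothelial-like cluster and 5 and 6 UMIs in all other cells together. Pcdh12, also an endothelial protocadherin, had 33 and 29 UMIs in that cluster and 1 and 0 elsewhere. Among the remaining rarer genes, Cdh7 was highest in Cajal-Retzius-like cells (17.9 and 26.2 CPM), Pcdh20 was enriched in layer 5 neuron-like cells (4.57 and 2.87 CPM, 4.7 and 3.6 times the others) and Pcdhb4 in GABAergic interneuron-like cells (3.93 and 3.80 CPM, 3.73 and 4.22 times the others). These folds rest on few counts: over all filtered cells, called doublets included, Pcdh20 had 81 and 69 UMIs and Pcdhb4 had 62 and 65.

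The clustered protocadherins were low per gene and spread over many classes. The summed level of the 20 Pcdhb genes was 69.6 CPM over all wild type and 48.3 CPM over all ShhN cells. It was 19.4 and 11.8 CPM in radial glia-like cells, 59.2 and 45.7 CPM in migrating neuron-like cells, 106 and 87.9 CPM in layer 6 neuron-like cells and 102 and 63.9 CPM in GABAergic interneuron-like cells. Radial glia-like cells were thus the lowest of the compared classes in both libraries. Within the beta cluster, Pcdhb16 (16 and 10.9 CPM) and Pcdhb21 were enriched in layer 6 neuron-like cells in both libraries, by 2.29 and 2.37 times and by 2.84 and 3.34 times, and Pcdhb17 had its highest level there too, at 17 and 14.6 CPM. Of the compared classes Pcdhb7 was highest in GABAergic interneuron-like cells, at 20.0 and 12.1 CPM. The 14 Pcdhg rows summed to 45.9 and 32.2 CPM over all cells, and the 3 Pcdha rows to 5.44 and 4.42 CPM. Summed Pcdhg was 46.3 and 37.6 CPM in intermediate progenitor-like cells and 47.8 and 49.9 CPM in the endothelial-like cluster. Radial glia-like cells were the lowest of the compared classes for it, at 37.4 CPM (28.0–49.1) and 24.2 CPM (17.3–32.8). These intervals overlapped those of layer 5 neuron-like cells, at 40.3 CPM (36.4–44.5) and 30.7 CPM (27.1–34.7).

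The 38 genes under 500 UMIs included 16 beta, 11 gamma and 3 alpha genes. Over all cells these beta genes ran from 0.429 CPM (Pcdhb10) to 4.65 CPM (Pcdhb19) in wild type cells and from 0.384 CPM (Pcdhb13) to 3.51 CPM (Pcdhb19) in ShhN cells. Their gamma counterparts ran from 0.450 CPM (Pcdhga4) to 3.30 CPM (Pcdhgb4) in wild type cells and from 0.349 CPM (Pcdhga3) to 2.53 CPM (Pcdhgb4) in ShhN cells, and the alpha rows from Pcdha8 (0.472 and 0.576 CPM) to Pcdha11 (4.2 and 3.11 CPM). Cdh24, a type II cadherin, had 1.01 and 1.05 CPM over all cells and at most 17 UMIs in any class of either library. At such counts most of these genes could not be compared within single classes.

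**Figure D2:**
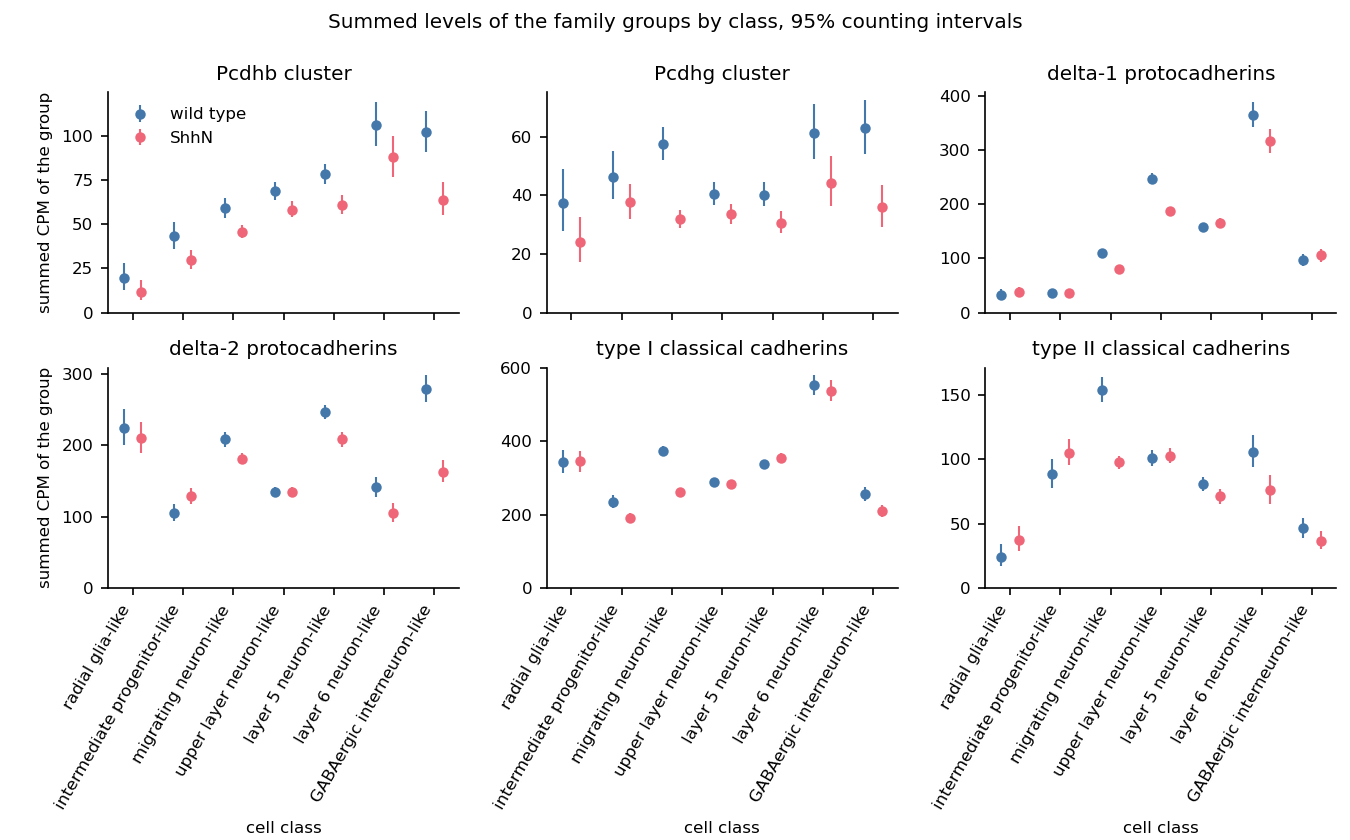
Summed CPM of 6 groups of the family in 7 cell classes, with 95% counting intervals as bars, wild type in blue and ShhN in red. Beta and delta-1 protocadherins are low in radial glia-like and intermediate progenitor-like cells and highest in layer 6 neuron-like cells in both libraries, while delta-2 genes are already at 224 and 210 CPM in radial glia-like cells.

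A typical cell held UMIs of few of these genes. After thinning to 4500 UMIs (5273 wild type and 7014 ShhN cells, with 1680 and 1054 shallower cells left out), the mean number of family genes detected per cell was 3.0 in wild type and 2.58 in ShhN cells, with medians of 3 and 2. In 3.05% and 6.1% of cells no family gene was found. Layer 6 neuron-like cells had the most, with means of 3.78 and 3.64. Radial glia-like cells had 2.2 and 2.23, intermediate progenitor-like cells 1.99 and 1.99, and GABAergic interneuron-like cells 2.99 and 1.98. The last pair rests on 131 of 788 wild type and 291 of 531 ShhN cells. Without thinning, GABAergic interneuron-like cells had 2.53 and 2.5, and the thinned cells of their cluster 8 had 3.22 and 3.21. Among thinned cells, layer 6 neuron-like cluster 10 alone had 3.59 and 3.58, close to layer 5 neuron-like cluster 4 with 3.51 and 3.39. In cluster 15 the mean was 5.34 over its 32 thinned wild type cells. Any Pcdhb gene was found in 24.3% and 18.1% of all cells, in 5.44% and 3.63% of radial glia-like cells and in 33.6% and 19.9% of GABAergic interneuron-like cells (29.1% and 26.4% of the last without thinning). Within GABAergic interneuron-like cluster 8 the order was the other way, at 33.0% of 88 thinned wild type and 42.9% of 70 thinned ShhN cells, while 214 of the 291 thinned ShhN cells of the class were in cluster 16, where 12.1% held a Pcdhb UMI. In cluster 9, unnamed and led by Olig1, Olig2 and Egfr (74 and 611 thinned cells), 6.76% and 5.56% of cells held a Pcdhb UMI, and 9.46% and 19.1% held no family gene. Without thinning the means were 3.87 and 3.53 genes per cell.

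The libraries were then compared within each class by the log2 ratio of CPM, ShhN over wild type, with a conditional binomial 95% interval. A gene with 50 or more UMIs was past the size rule where the ratio was at least 1 in size and its bound nearest 0 at least 0.5. Over all cells 1 of 56 family genes was higher and 2 were lower in the ShhN library, beside 2.84% and 1.85% of all genes. Cdh20, a type II cadherin, was higher, at 0.472 CPM (22 UMIs) against 1.43 CPM (82 UMIs), a log2 ratio of 1.60 (0.91 to 2.35). Cluster 9 held 9 of its wild type and 47 of its ShhN UMIs, at 12.2 and 8.93 CPM, and made up 87 wild type and 663 ShhN cells. Pcdh19 was lower, at 24 and 11.6 CPM, a log2 ratio of -1.05 (-1.20 to -0.91), and Pcdhga7 was lower with 48 and 25 UMIs, a ratio of -1.24 (-2.0 to -0.51). With TMM scaling in place of the total the Pcdh19 ratio was -0.98, and with cells thinned to 4500 UMIs it was -0.74, so neither passed the rule. The Pcdhga7 ratio did not pass under 7 of 13 alternatives, TMM scaling (-1.16) and doublets kept (-1.14) among them.

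Below the size rule, the family leaned to lower levels in the ShhN library over all cells, but not in every class. The median log2 ratio over all cells was -0.42 for the 56 family genes and -0.08 for all genes. The interval lay wholly below 0 for 30 of 56 family genes (53.6%), beside 38.1% of all genes, and the summed family had a ratio of -0.29 (-0.30 to -0.27). Of the testable beta genes 18 of 19 had a ratio below 0, 11 with an interval below 0, and of the gamma rows 12 of 12 and 8, beside 63.2% of all genes with a ratio below 0. Since 3′ counts cannot separate the gamma genes, these 12 rows are not separate readings. The summed Pcdhg level had a ratio of -0.51 (-0.60 to -0.42). The interval lay above 0 for 4 family genes (19.9% of all genes), among them Pcdh10, with 21.4 and 32.8 CPM and a log2 ratio of 0.62 (0.51 to 0.73), and Pcdh18, with a ratio of 0.68 (0.44 to 0.92). In figures over all cells, other numbers of cells of a class and other levels per cell cannot be told apart.

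**Figure D3:**
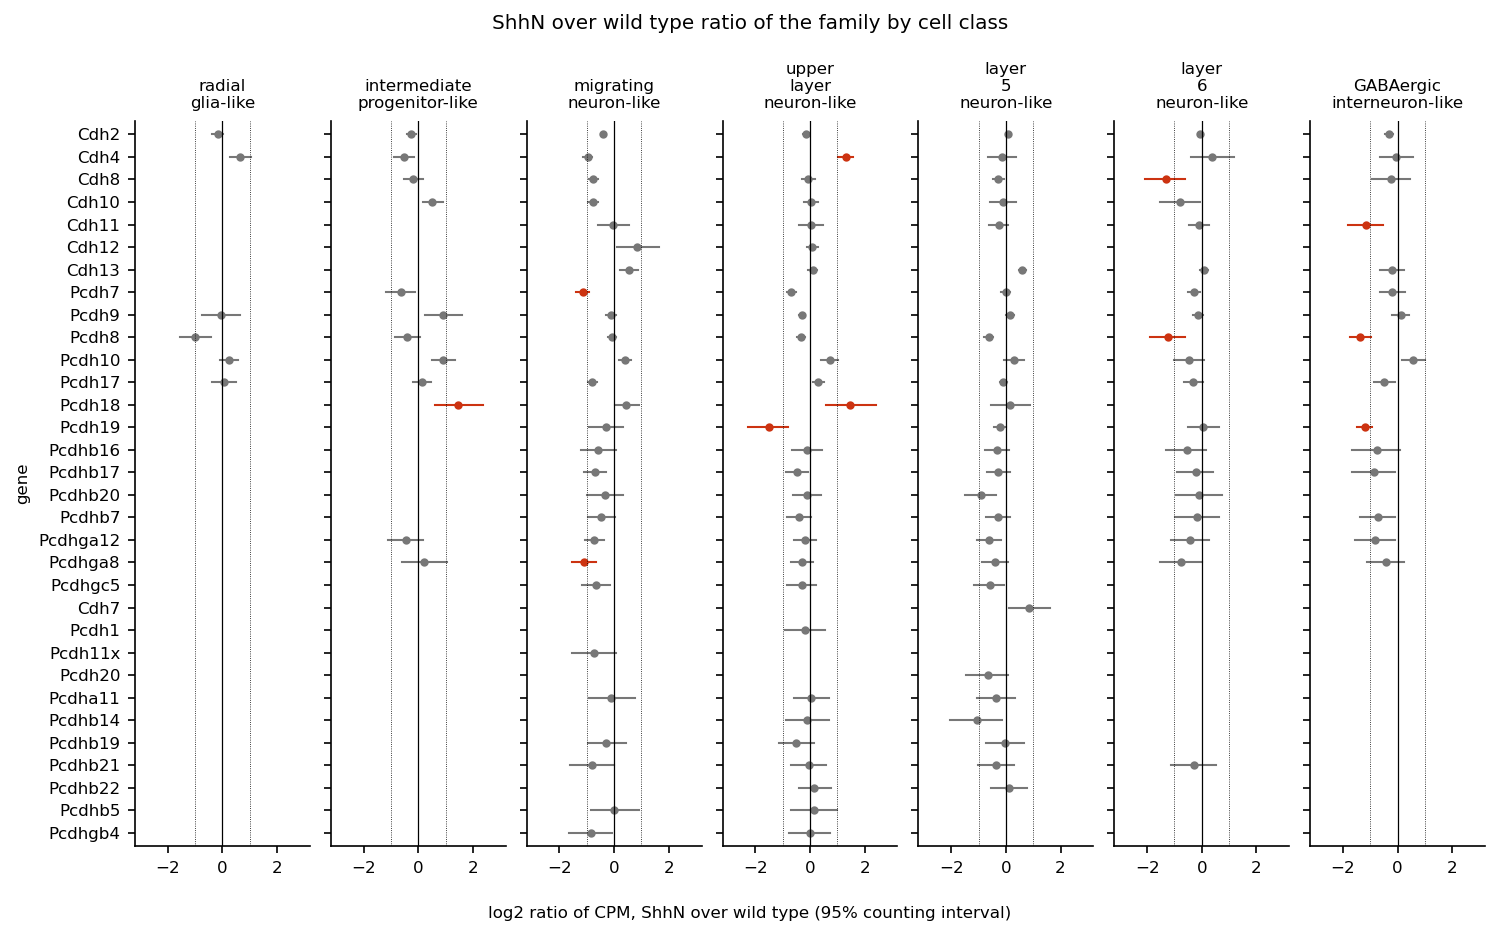
Log2 ratio of CPM, ShhN over wild type, for family genes with 50 or more UMIs in each of 7 classes, with 95% counting intervals. Red points passed the size rule, grey ones did not, and dotted lines mark a ratio of 1 in size. GABAergic interneuron-like and upper layer neuron-like cells hold 3 red points each, and radial glia-like and layer 5 neuron-like cells hold 0.

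GABAergic interneuron-like cells had 0 of 16 family genes higher and 3 lower in the ShhN library, beside 6.17% and 3.08% of all genes. Pcdh19 stood at 132 CPM (120–146) in wild type and 57.3 CPM (49.0–66.8) in ShhN cells, a log2 ratio of -1.21 (-1.48 to -0.94). Pcdh8 stood at 72.7 CPM (63.5–82.9) and 28.3 CPM (22.5–35.2), a ratio of -1.36 (-1.74 to -0.99). Cdh11 stood at 24.6 CPM (19.3–30.8) and 11.1 CPM (7.56–15.6), a ratio of -1.15 (-1.80 to -0.54). The class, however, was filled by different clusters. Free RNA held 23.7 and 7.55 CPM of Pcdh19 and 64.6 and 37.7 CPM of Pcdh8. Within cluster 8, the Lhx6 and Sst cluster present in both libraries, Pcdh19 had 165 CPM (149–182) and 150 CPM (127–175), a ratio of -0.14 (-0.42 to 0.13). Pcdh8 there had 91.6 and 66.9 CPM, a ratio of -0.45, and Cdh11 a ratio of 0.09, so none of these genes was past the rule within cluster 8. Cluster 16, with 255 ShhN and 18 wild type cells, had 4.06 CPM of Pcdh19 (7 UMIs) and 5.22 CPM of Pcdh8 in the ShhN library. With coarser or finer clusters, or clusters set on wild type cells alone, the Pcdh19 ratio of the class was -0.68, -0.70 or -0.34 and that of Pcdh8 -0.85, -0.87 or -0.51, none past the rule. The Cdh11 call held under 3 of 14 alternatives, and with those same 3 clusterings its ratio was -0.59, -0.61 or -0.32.

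The share of cells with a Pcdh19 UMI was also lower: 31.3% (23.5–40.0) of thinned wild type and 11.3% (7.94–15.6) of thinned ShhN GABAergic interneuron-like cells held one, against 1.94% and 1.55% of migrating neuron-like cells (31.3%, 19.0%, 2.27% and 2.2% unthinned). Only 131 of 788 wild type and 291 of 531 ShhN cells of the class reached 4500 UMIs, and median depths were 3647 and 4676 UMIs. Pcdh10 went the other way in this class, at 27.8 and 41.5 CPM with a ratio of 0.57 (0.16 to 0.99), which is not past the rule. The part of the unequal filling of clusters in this Pcdh10 ratio was not tested. The summed Pcdhb level of the class had a ratio of -0.67, and within cluster 8 it was 105 and 127 CPM, a ratio of 0.27 (-0.05 to 0.58).

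Upper layer neuron-like cells had 2 of 29 family genes higher and 1 lower, beside 0.368% and 0.288% of all genes. Cdh4 stood at 17.1 CPM (14.7–19.9) in wild type and 42.0 CPM (38.3–46.0) in ShhN cells, a log2 ratio of 1.30 (1.04 to 1.56). In thinned cells it was found in 6.61% and 14.3% of this class (10.0% and 20.5% unthinned), against 3.27% and 3.29% of layer 5 neuron-like cells. Pcdh18 had 1.48 CPM (0.83–2.45) and 4.11 CPM (3.01–5.49), from 15 and 46 UMIs, a ratio of 1.47 (0.60 to 2.42). Pcdh19, already low in this class, had 5.83 CPM (4.44–7.53) and 2.06 CPM (1.30–3.09), a ratio of -1.5 (-2.27 to -0.79). Free RNA, estimated from barcodes of at most 50 UMIs, held 19.0 and 21.0 CPM of Cdh4 and 23.7 and 7.55 CPM of Pcdh19, so that free RNA of Pcdh19 was lower in the ShhN library too. With free RNA subtracted the Pcdh19 ratio was -1.47. The Pcdh19 ratio did not pass the rule with clusters set on wild type cells alone (-0.81), while that of Cdh4 did. The Pcdh18 call held under 4 of 15 alternatives: its ratio stayed above 0 in all of them, was 0.65 with thinned cells, 0.66 in cluster 3 alone and 0.95 with finer clusters, and in the other failures its interval or its UMIs fell short.

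Migrating neuron-like cells had 0 of 27 family genes higher and 2 lower, beside 0.605% and 1.08% of all genes. Pcdh7 stood at 42.8 CPM (38.1–47.8) in wild type and 19.3 CPM (17–21.8) in ShhN cells, a log2 ratio of -1.15 (-1.39 to -0.91). In thinned cells Pcdh7 was found in 15.1% and 7.56% of the class, against 1.36% and 3.63% of radial glia-like cells (18.7%, 9.71%, 2.34% and 6.3% unthinned). The row named Pcdhga8, one of the gamma genes that 3′ counts cannot separate, had 13.9 and 6.45 CPM, a ratio of -1.11 (-1.54 to -0.68), and the summed Pcdhg level of the class was 57.5 and 31.8 CPM, a ratio of -0.85 (-1.05 to -0.66). Among cells of at least 4500 UMIs the ratios were -0.95 for Pcdh7 and -0.98 for the Pcdhga8 row, just short of the rule. Cdh4 was also short of the rule with a ratio of -0.96 (-1.13 to -0.80), from 87.8 CPM (81.1–94.9) to 45.0 CPM (41.5–48.7). Cdh8 (-0.76), Cdh10 (-0.78) and Pcdh17 (-0.81) were lower by less. The median ratio of the class was -0.47 for family genes and -0.08 for all genes, and 12 of 27 family genes had an interval below 0, beside 23.9% of all genes, and 4 of 27 (14.8%) had one above 0, beside 11.1%.

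**Figure D4:**
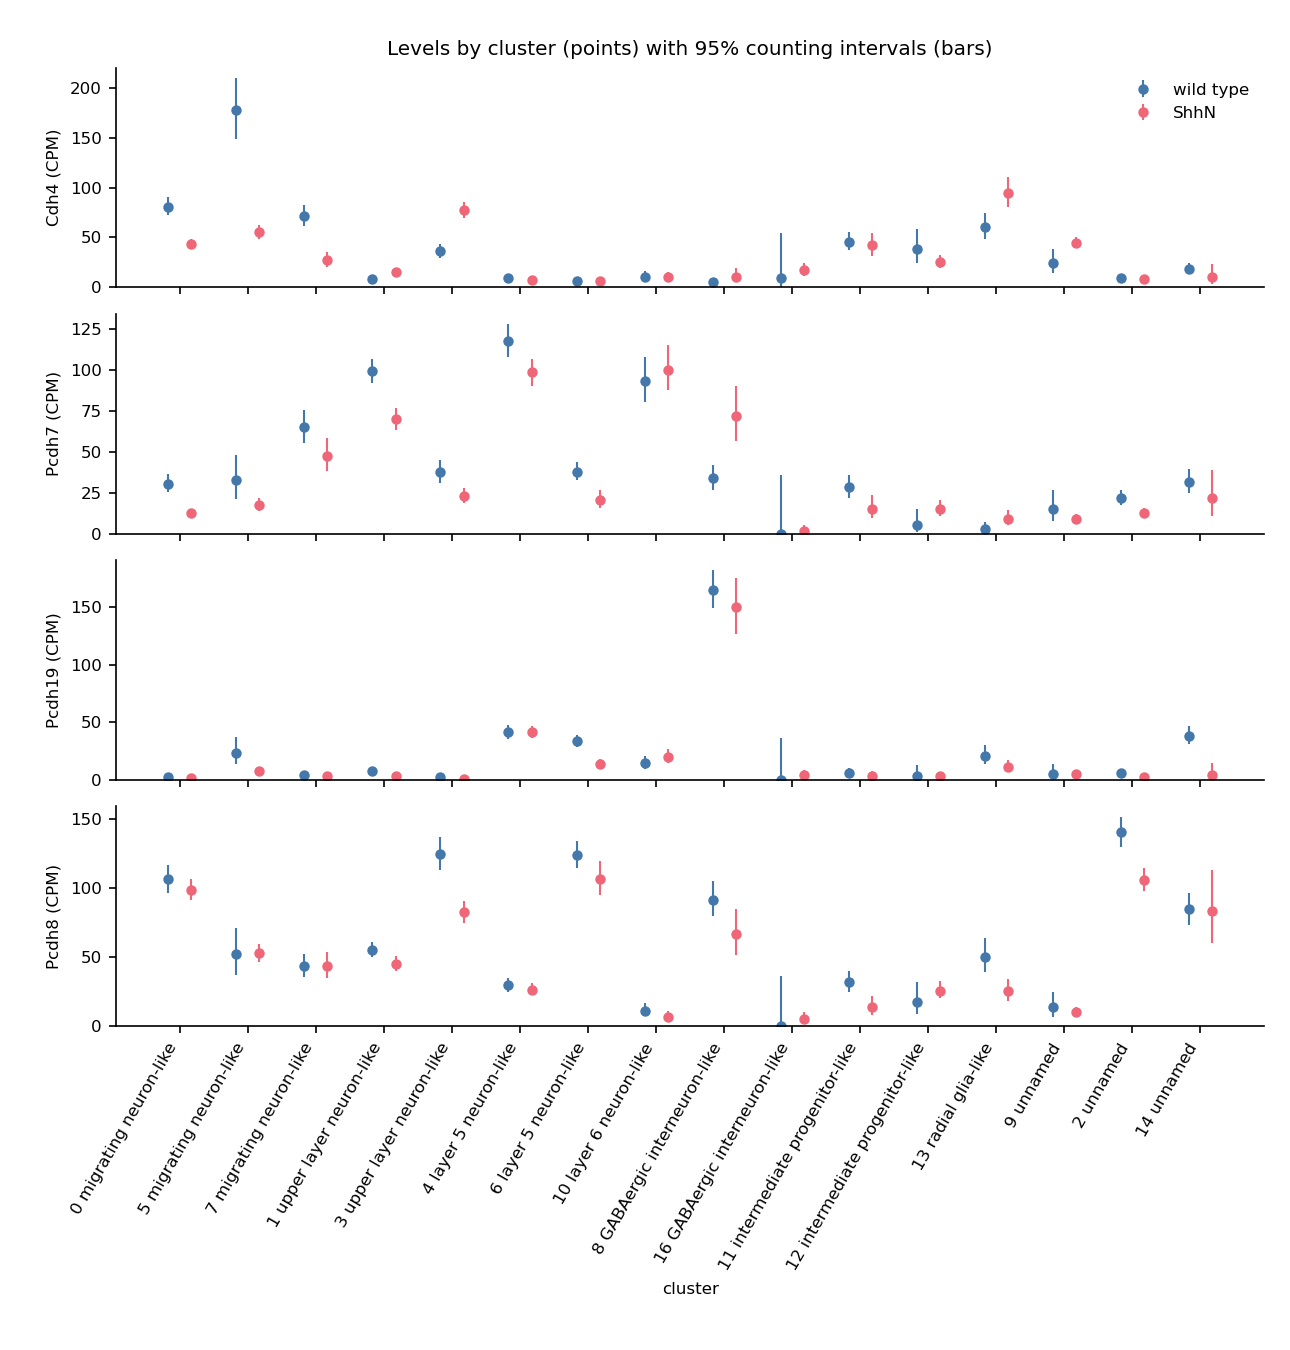
CPM of Cdh4, Pcdh7, Pcdh19 and Pcdh8 in 16 clusters, with 95% counting intervals as bars, wild type in blue and ShhN in red. In the ShhN library Cdh4 is lower in migrating neuron-like clusters 0, 5 and 7 and higher in upper layer neuron-like clusters 1 and 3, and Pcdh19 is near its wild type level in clusters 8 and 4 and low in cluster 16.

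Single clusters showed where the Cdh4 and Pcdh7 values lay. In the migrating neuron-like clusters Cdh4 had 80.8 and 43.0 CPM in cluster 0 (log2 ratio -0.91), 178 and 55.1 CPM in cluster 5 (-1.69, interval -1.99 to -1.38) and 71.3 and 27.3 CPM in cluster 7 (-1.38, -1.85 to -0.94). In the upper layer neuron-like clusters it had 8.49 and 15.8 CPM in cluster 1 (0.89) and 36.0 and 77.4 CPM in cluster 3 (1.10, 0.80 to 1.42). All 3 migrating clusters were thus lower and both upper layer clusters higher in the ShhN library. Cluster 0 was high in 5 of 10 migrating neuron markers but also in 5 of 12 upper layer neuron markers. Clusters 5 and 7 were high in 2 and 1 of these 12. Pcdh7 was lower in cluster 0, at 30.4 and 12.3 CPM (-1.31, -1.73 to -0.89), by less in clusters 5 (-0.91) and 7 (-0.45), and higher in GABAergic interneuron-like cluster 8, at 33.7 and 71.8 CPM (1.09, 0.61 to 1.57).

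Of the 12 compared clusters, cluster 5 had the most family genes past the rule, 4 of 13 lower, beside 0.79% of all genes. Besides Cdh4 these were Pcdh17 with 95.4 and 30.4 CPM (log2 ratio -1.65, -2.07 to -1.22), Pcdh9 with 119 and 50.7 CPM (-1.23, -1.58 to -0.86) and Pcdh19 with 23.5 and 7.97 CPM (-1.56, -2.41 to -0.67). Cluster 0 had 3 of 19 lower (0.669% of all genes), which were Pcdh7, the Pcdhga8 row and Cdh10 with 25.3 and 12.5 CPM (-1.02, -1.46 to -0.59). Cluster 6, the layer 5 neuron-like cluster led by Slit3 and Nrp2, had 2 of 20 lower (0.58%), Pcdh19 with 33.5 and 13.3 CPM (-1.34, -1.89 to -0.82) and Pcdhb16 with 56 and 8 UMIs (-1.85, -3.13 to -0.78). Of the others, cluster 7 had 1 of 11 lower (0.673%), Cdh4, cluster 1 had 1 of 25 lower (0.291%), Pcdh19 at -1.31, cluster 3 had 1 of 15 higher (0.297%), Cdh4, and cluster 8 had 1 of 14 higher (0.358%), Pcdh7.

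The remaining classes showed few family genes past the rule. Layer 6 neuron-like cells had 0 of 19 higher and 2 lower, beside 0.101% and 0.317% of all genes: Cdh8 with 23.1 CPM (17.8–29.4) and 9.32 CPM (5.91–14), a log2 ratio of -1.31 (-2.06 to -0.60), and Pcdh8 with 28.7 CPM (22.8–35.7) and 12.2 CPM (8.20–17.4), a ratio of -1.24 (-1.90 to -0.62). Both genes were higher in cluster 15, which held more of the wild type than of the ShhN cells of this class. Cdh8 had 58.1 and 45.3 CPM in cluster 15 (ratio -0.36, -1.36 to 0.54) and 7.66 and 4.58 CPM in cluster 10 (-0.74, -2.06 to 0.51). Pcdh8 had 68.6 and 55.8 CPM in cluster 15 (-0.30, -1.20 to 0.52) and 11.2 and 6.42 CPM in cluster 10 (-0.81, -1.89 to 0.22). Neither gene was past the rule in either cluster, where cluster 10 had fewer than 50 UMIs of each, and the part of the unequal filling in the class ratios was not tested otherwise. The Cdh8 call held under 4 of 14 alternatives and that of Pcdh8 under 5 of 14: with doublets kept the ratios were -0.46 for Cdh8 and -0.53 for Pcdh8, and with cells assigned singly by marker counts -0.37 and 0.13. Intermediate progenitor-like cells had 1 of 12 higher and 0 lower, beside 3.0% and 1.66%: Pcdh18 with 5.34 CPM (2.99–8.81) and 14.6 CPM (11.1–18.8), a ratio of 1.45 (0.61 to 2.37). Within the mitotic cluster 12, which held most ShhN cells of the class, Pcdh18 had 15.7 CPM (7.2–29.9) and 20.2 CPM (15.2–26.3), and in cluster 11, which held most wild type cells, a ratio of 0.17.

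Layer 5 neuron-like cells had 0 of 27 family genes past the rule in either direction, beside 0.237% of all genes higher and 0.782% lower. Cdh13 had a ratio of 0.60 and Pcdh8 of -0.63, at 82.5 and 53.2 CPM. Radial glia-like cells, where Cdh2 junctions line the ventricle, had 0 of 6, beside 0.483% and 0.468%. There Cdh2 had a ratio of -0.18 (-0.38 to 0.02), Pcdh10 of 0.24 (-0.10 to 0.58), Cdh4 of 0.65 (0.26 to 1.05) and Pcdh8 of -0.99 (-1.57 to -0.42), at 50.4 and 25.3 CPM. With 171 and 238 cells, only 6 of the 59 family genes had enough UMIs in this class for a ratio.

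Of 27 catenins and other cadherin partners measured, 24 had enough UMIs over all cells. Of these, 0 were past the size rule, beside 2.84% of all genes higher and 1.85% lower. In GABAergic interneuron-like cells 1 of 19 was higher and 1 lower (5.26% each), beside 6.17% and 3.08% of all genes. These counts are near the shares of all genes. Ctnna1, the alpha-catenin of epithelia and progenitors, had 9.5 and 46.6 CPM, a log2 ratio of 2.30 (1.71 to 2.93), and Ctnna2, the alpha-catenin of neurons, had 117 and 50.4 CPM, a ratio of -1.21 (-1.5 to -0.93). Within cluster 8 alone Ctnna2 had a ratio of -0.45 and Ctnna1 had 19 and 5 UMIs. In cluster 16 the ShhN cells had 73.1 CPM of Ctnna1 and 30.2 CPM of Ctnna2. That cluster was also high in 6 of 15 radial glia markers, among them Sox2, Vim and Nes. The high Ctnna1 and low Ctnna2 of the ShhN cells in this class were thus found in the same cluster as the low Pcdh19 and Pcdh8, and the part of the unequal filling of clusters in each result was not tested beyond the values within cluster 8.

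Profiles over the 12 clusters with 100 or more cells in both libraries were compared, as a description, by the lower of the 2 libraries' Pearson's r. The pairs most alike were Cdh11 with Pcdhb16 (r 0.89 and 0.84) and with Cdh13 (0.84 and 0.81), Pcdhb16 with Cdh13 (0.75 and 0.90) and with Pcdhb20 (0.72 and 0.83), Pcdhb7 with Pcdhb20 (0.72 and 0.79), Pcdh9 with Cdh13 (0.72 and 0.77) and Cdh4 with Pcdh10 (0.70 and 0.79). By the higher of both values, the pairs most opposite were Pcdh9 with Pcdhga12 (-0.73 and -0.65) and Cdh4 with Pcdhb16 (-0.76 and -0.65), Cdh13 (-0.65 and -0.71) and Cdh11 (-0.72 and -0.59). The clusters of a library share its depth and free RNA.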

How the data were processed

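Raw UMI counts per gene and barcode were deposited by the authors as 1 matrix per group, pooling the 4 samples of a group. Cell Ranger, StringTie, Seurat 3 and mm10 are named in the submitters' processing notes, without their roles. Barcodes with at least 2300 UMIs, 800 genes and at most 10% mitochondrial UMIs were kept, and doublets called with Scrublet (scanpy 1.11.5) were removed. Cells were scaled to 10000 counts and clustered on 2000 variable genes, leaving out family, SHH pathway, globin, mitochondrial and sex-linked genes (30 components, 15 neighbours, Leiden resolution 1). A cluster was named by the marker list, of 16, with the largest share of markers found in 10% of its cells and 1.5 times above the other cells, with at least 3; ties went to the list with more of the cluster's 10 leading genes, and a cluster stayed unnamed where another list held more of them (cluster 9). Counts were summed per class and library (CPM). No test was possible with 1 library per group. The size rule and intervals were run on simulated Poisson counts, which hold counting error only and cannot show how they fare with spread between embryos. Shares were taken after thinning, with exact Clopper-Pearson intervals, and a count of 0 allows a share of 3 counts of the total.

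Any family gene could be named, with full values for the 21 of at least 500 UMIs and those past the size rule; of other genes only catenins and partners were tested. The genes, lists and rules were chosen with earlier results of these data known. One gene matching the name rule is not reported here. Alternatives were UMI minimums of 20 and 200, TMM scaling (edgeR 4.0.16), equal weight per cell, doublets kept, at least 4500 UMIs per cell, at most 5% mitochondrial UMIs, thinning, subtraction of 5% free RNA, Leiden resolutions 0.5 and 2, clusters of wild type cells alone, and classes from marker counts of single cells. Ratios within single clusters were added after the data were seen.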

Additional observations from a re-analysis of the deposited data

Results flagged for a closer look

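Cdh4 and Pcdh7 had ratios past the size rule in opposite directions in different cells. The log2 ratio of Cdh4, ShhN over wild type, was 1.30 in upper layer neuron-like cells and 1.10 in their cluster 3, and it was -1.69 and -1.38 in migrating neuron-like clusters 5 and 7. The log2 ratio of Pcdh7 was -1.15 in migrating neuron-like cells and -1.31 in their cluster 0, and 1.09 in GABAergic interneuron-like cluster 8. With 1 library per group the difference between the ratios was not tested between samples.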

How the results depend on the processing

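No paired analysis was possible because the matrices pool the samples of a group and their columns carry no replicate numbers, and for the same reason no replicate could be left out. Of 182 ratios of named genes under the alternatives, 108 kept their direction and their side of the size rule, 73 kept the direction but no longer passed, and 1 reversed (Pcdh8 in layer 6 neuron-like cells, 0.13 with single-cell marker counts). In clusters on their own, 4 of 18 passed, 13 did not and 1 reversed (Cdh11 in GABAergic interneuron-like cluster 8, 0.09). The cause was not tested. The Cdh4 ratio in upper layer neuron-like cells passed under all alternatives on the class but single-cell marker counts (0.97), and that of Pcdh7 in migrating neuron-like cells under all but the minimum of 4500 UMIs per cell (-0.95).

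The number of family genes past the rule is given where it moved by more than 1.5 times; smaller moves are left out, and a like number need not be the same genes. Over all cells it was 3, and 1 with a minimum of 200 UMIs, TMM scaling or at least 4500 UMIs per cell, and 0 with thinned cells. In GABAergic interneuron-like cells it was 3, and 1 with equal weight per cell or single-cell marker counts, and 0 with Leiden resolution 0.5 or 2 or wild type clusters. In intermediate progenitor-like cells it was 1, and 3 with doublets kept, 2 with free RNA subtracted or resolution 2, and 0 with a minimum of 200 UMIs, thinned cells, resolution 0.5, wild type clusters or single-cell marker counts. In layer 5 neuron-like cells it was 0, and 1 with resolution 2. In layer 6 neuron-like cells it was 2, and 1 with TMM scaling, and 0 with a minimum of 200 UMIs, doublets kept, at least 4500 UMIs, at most 5% mitochondrial UMIs, thinned cells, resolution 2, wild type clusters or single-cell marker counts. In migrating neuron-like cells it was 2, and 1 with a minimum of 200 UMIs, doublets kept, resolution 2 or single-cell marker counts, and 0 with at least 4500 UMIs. In radial glia-like cells it was 0, and 1 with at least 4500 UMIs or wild type clusters. In upper layer neuron-like cells it was 3, and 1 with a minimum of 200 UMIs, thinned cells or wild type clusters, and 0 with single-cell marker counts, and elsewhere it ran from 2 to 4.

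The mean number of family genes per cell was 3.0 and 2.58 in the wild type and ShhN libraries at 4500 UMIs, 2.24 and 1.89 at 3000 UMIs, and 3.87 and 3.53 without thinning. The 12 genes enriched in both libraries became 8 to 15, and the 22 with the same highest class 18 to 28. TMM scaling moved all log2 ratios up by 0.022 to 0.107. Radial glia-like cells, with 171 and 238 cells, had the fewest genes with enough UMIs, 6.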
